A study of Mus musculus with 6 samples.

Results

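Expression of 10 genes, here called the vascular-type basement membrane genes, was followed through 6 RNA-seq samples of sorted mouse mammary tumor cells. They encode both chains of the common collagen IV trimer (Col4a1, Col4a2), the multiplexin collagens XV and XVIII (Col15a1, Col18a1), the nidogens (Nid1, Nid2), perlecan (Hspg2) and 3 laminin chains (Lama4, Lamb1, Lamc1). They were chosen by gene name, with earlier results of these data known, as 10 of the 41388 Ensembl genes in the count files. All samples came from tumors of female FVB/N-TgN(MMTVPyVT)634Mul/J mice, which express the polyoma middle T antigen under the mouse mammary tumor virus promoter, so that every sample carries the transgene and no sample comes from normal mammary gland. Mice of 12 weeks were used after the cells had first been characterized. Among the 6, 3 samples were TICs, that is, tumor-initiating CD24+CD90+CD45- cells, and 3 were non-CD24+CD90+ tumor cells, the CD45- cells negative for either or both of the 2 markers, although the series description names that group as cells that lack both. Cells of 4 sorts were pooled for each sample. Live CD45- cells were gated on CD24 and CD90 (Thy1) alone, and the methods name no antibody used to exclude endothelial cells, pericytes or fibroblasts.

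A basement membrane is the thin sheet of extracellular matrix under epithelia and endothelia and around pericytes, smooth muscle and fat cells. It is built from a laminin network and a collagen IV network, which nidogens and the proteoglycan perlecan link to each other. Collagen IV with α1 and α2 chains occurs in nearly all basement membranes. Laminin α4 is the α chain of vessels, muscle, fat and nerve rather than of epithelium, collagens XV and XVIII lie in the basement membrane zone of vessels and other tissues, and the carboxy-terminal fragment of collagen XVIII is endostatin, an inhibitor of angiogenesis. The epithelial counterparts are laminin with α3 and β3 chains and collagen IV with α5 and α6 chains.

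Total counts ranged from 6781239 to 8450038 in non-CD24+CD90+ cells and from 8114933 to 9100552 in TICs, and 3 counts in a sample stand for 0.33 to 0.442 CPM (the count scaled to a common library size), a limit from counting error alone. A count of 0 has to be read with more caution than this, since many genes without a count in 1 sample were well above 0 in the other samples of its group. Where those samples predicted 20 to 60 counts, 19.1% to 24.5% of the genes had 0 in non-CD24+CD90+ samples. In TIC samples 27.2% to 39.7% had 0. TIC replicate 3 stood apart on the first principal component of all expressed genes, at 165.3 against -56.9 to -5.51 for the other 5 samples, and the fold changes are therefore also given without it. TIC replicate 2 stood apart on the second component, at -135.9 against -8.66 to 66.4 for the other 5 samples. The 2 components held 31.0% and 22.7% of the variance. The sorted cells held abundant RNA of the epithelial markers Krt18 and Epcam in all samples. The sums over 16 luminal epithelial markers were 6647 to 6915 CPM in non-CD24+CD90+ cells and 4272 to 5207 CPM in TICs. Levels below are CPM normalized by the TMM method of edgeR, and "passed the test" means an adjusted p-value (Benjamini-Hochberg, over all expressed genes) below 0.1 in edgeR's exactTest, the test of the study's methods.

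The 2 collagen IV genes lie head to head on chromosome 8 of GRCm38, Col4a1 (ENSMUSG00000031502) on the minus strand from 11198423 to 11312826 and Col4a2 (ENSMUSG00000031503) on the plus strand from 11312805 to 11449287, so that their gene models overlap by 22 bases and transcription runs outward from a shared region. The windows of 250 bases before to 50 bases after each annotated start are shown because Col4a1 and Col4a2 were the 2 genes of the set that passed the test and share this stretch of DNA. They come from RefSeq (GRCm38.p6), chr8:11312777-11313076 on the minus strand for Col4a1 and chr8:11312555-11312854 on the plus strand for Col4a2, each read 5′ to 3′, and they share 78 bases on opposite strands. Capitals mark matches, on either strand, to the CCAAT box (CCAAT), to the GC box with the letters GGGCGG and to the TATA box with the letters TATAAA, and the matches did not overlap each other.
Col4a1: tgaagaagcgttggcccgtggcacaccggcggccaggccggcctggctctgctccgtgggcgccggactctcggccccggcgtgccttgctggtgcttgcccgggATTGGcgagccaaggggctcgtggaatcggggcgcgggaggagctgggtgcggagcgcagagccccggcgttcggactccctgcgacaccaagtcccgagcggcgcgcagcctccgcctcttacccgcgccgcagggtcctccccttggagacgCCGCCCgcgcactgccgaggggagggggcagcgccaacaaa
Col4a2: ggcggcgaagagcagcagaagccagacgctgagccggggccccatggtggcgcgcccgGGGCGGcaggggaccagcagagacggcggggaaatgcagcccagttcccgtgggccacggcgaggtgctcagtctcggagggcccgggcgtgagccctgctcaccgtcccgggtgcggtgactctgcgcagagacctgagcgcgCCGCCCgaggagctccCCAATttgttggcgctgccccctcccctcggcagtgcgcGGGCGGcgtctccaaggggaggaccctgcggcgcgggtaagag
GC content was 74.0% in the Col4a1 window and 73.7% in the Col4a2 window, against a median of 52.7% over 32851 promoter windows of the same length. Each held 1 match to CCAAT, a motif present in 37.4% of all windows, and neither held TATAAA, present in 13.6%. GGGCGG, present in 35.7% of all windows, had 1 match in the Col4a1 window and 3 in the Col4a2 window. The Col4a1 match and the last Col4a2 match are the same site in the shared bases, read on opposite strands. Windows were listed for 7 of the 10 genes, 8 windows in all. Hspg2 had the most matches to GGGCGG, 5, and Col15a1 had no match to any of the 3 motifs. A match to so short a motif describes the letters and not a bound site.

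Of the 10 genes, 9 were expressed above 1 CPM in every sample and entered the test, with levels from 12.7 to 829.5 CPM. The exception was Nid2, for which replicates 1 to 3 of non-CD24+CD90+ tumor cells held 16, 5 and 0 counts and those of TICs 0, 1 and 2. The mean of each of the 9 tested genes was higher in TICs. Their log2 fold changes lay between 0.72 (Hspg2) and 1.32 (Lamc1), with a median of 1.003, where the median of all 12192 tested genes was -0.01. Among all tested genes, 49.7% had a log2 fold change above 0 and 20.2% one at or above that of Hspg2. Of the 9, 2 passed the test, Col4a1 and Col4a2, both higher in TICs, while 1.55% of all tested genes passed, 1.36% as higher in TICs. In 4 of the 9, Col4a1, Col4a2, Col18a1 and Lamb1, the lowest TIC sample lay above the highest non-CD24+CD90+ sample, which held for 7.69% of all tested genes, and the reverse order, found in 7.55% of all tested genes, occurred in 0 of the 9. The unadjusted p was below 0.05 in 8 of the 9, all but Lama4, and in 7.85% of all tested genes. Neither call was made in every fit. The quasi-likelihood test of edgeR called 0 of the 9, and 50 of all 12192 genes. With that test 8 of the 9 had an unadjusted p below 0.05, as did 7.92% of all tested genes. DESeq2 called 3 of the 9, and 306 of all 12192 genes. Leaving out any 1 sample other than TIC replicate 1 left 0 of the 9 called, and those fits called 72 to 127 genes over all. How far the smaller groups account for this was not tested.

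**Figure D1:**
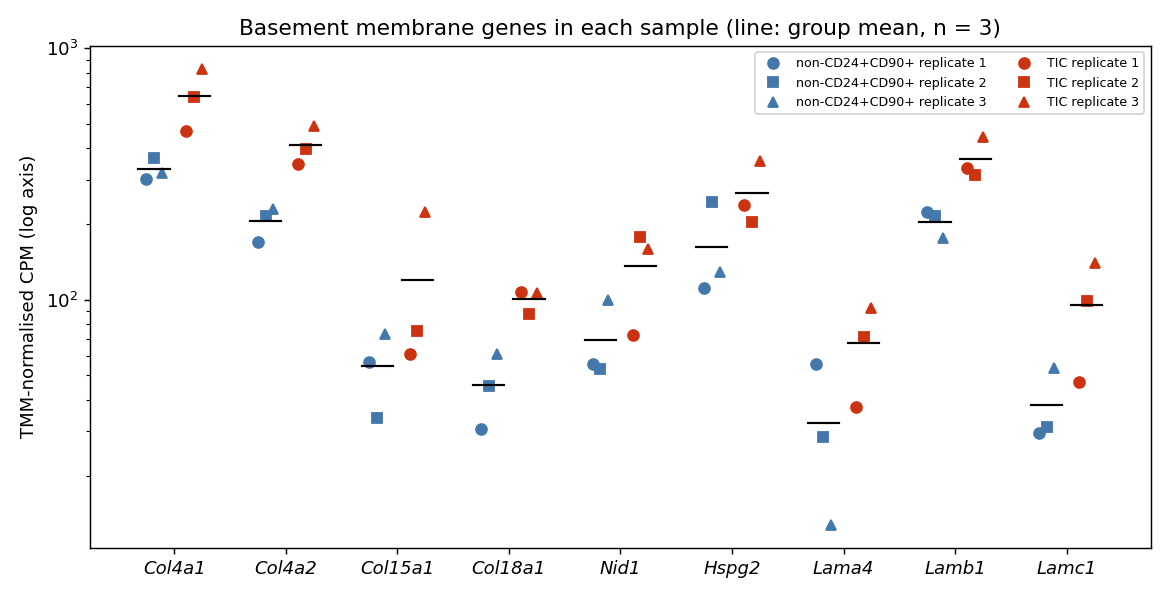
TMM-normalized CPM (log axis) of the 9 expressed vascular-type basement membrane genes in each of the 6 samples, with symbols for replicates, blue for non-CD24+CD90+ tumor cells, red for TICs and a line at each group mean (n = 3). The groups are separate for Col4a1, Col4a2, Col18a1 and Lamb1, and TIC replicate 3 is the highest sample in 7 of the 9 genes.

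Col4a1 encodes the chain that enters the collagen IV trimer in 2 copies. Replicates 1 to 3 of non-CD24+CD90+ tumor cells were at 303, 366 and 321 CPM, and those of TICs at 471, 642 and 829.5 CPM. The groups did not overlap, and the TIC samples spread more widely than the others. Means were 329.9 ± 32.5 and 647 ± 179.5 CPM (SD, n = 3), a log2 fold change of 0.97 ± 0.30 (SE, edgeR exactTest, adjusted p = 0.0922), or 1.96-fold. Without TIC replicate 3 the log2 fold change was 0.77 and the adjusted p-value 0.283.

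Col4a2 encodes the partner chain. Its level was 348, 397 and 489 CPM in TICs against 169, 216 and 230.3 CPM in the other group, again without overlap. The log2 fold change was 1.003 ± 0.29 (SE, edgeR exactTest, adjusted p = 0.0651). Without TIC replicate 3 it was 0.88, with an adjusted p-value of 0.192. Over the 6 fits with 1 sample left out, the log2 fold change ranged from 0.77 to 1.17 for Col4a1 and from 0.88 to 1.12 for Col4a2, and the adjusted p-values over all alternatives from 0.0045 to 0.438 and from 0.00448 to 0.424. The direction was thus the same in all these fits, whereas the call was made in 5 of 14 alternatives for each gene.

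The balance between the 2 chains was compared within each sample. Divided by exon length, the Col4a2 to Col4a1 ratio was 0.834, 0.698 and 0.665 in TICs against 0.63, 0.666 and 0.81 in the other group. The ranges overlapped, and the difference of the mean log2 ratio, 0.06, was below the SD within either group, 0.19 and 0.17 (exact permutation test, two-sided, p = 0.6, adjusted p = 1 over 4 ratios). With 3 samples against 3 this test cannot give a p below 0.1.

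The multiplexins showed higher means in TICs and did not pass the test. Col18a1 (ENSMUSG00000001435, chromosome 10, 77052178 to 77166548), the endostatin precursor, was at 107, 88.0 and 106 CPM in TICs and at 30.6, 45.3 and 61.1 CPM in the other group. The lowest TIC sample thus stood above the highest of the other group, and of the 9 genes only Col18a1 was highest in TIC replicate 1. Its log2 fold change was 1.14 ± 0.39 (SE, edgeR exactTest, adjusted p = 0.178), and 1.12 without TIC replicate 3.

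Col15a1 (ENSMUSG00000028339, chromosome 4, 47208161 to 47313167) was at 60.9, 75.0 and 224 CPM in TICs and at 56.5, 33.8 and 72.9 CPM in the other group. Only TIC replicate 3 was far from the rest, and the groups overlapped. The log2 fold change of 1.14 ± 0.49 (SE, adjusted p = 0.449) fell to 0.34 without that sample, the largest shift of the 9 genes. The Col15a1 to Col18a1 ratio per exon length ranged from 0.826 to 2.04 in non-CD24+CD90+ cells and from 0.626 to 2.32 in TICs (exact permutation test, two-sided, p = 0.8, adjusted p = 1 over 4 ratios).

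Lamb1 and Lamc1 encode the β1 and γ1 chains, which most laminins outside the epithelial type share. Lamb1 (ENSMUSG00000002900, chromosome 12, 31265234 to 31329644) was at 333, 314 and 445 CPM in TICs and at 223, 214 and 176 CPM in the other group. The groups were separate, and the log2 fold change was 0.83 ± 0.29 (SE, edgeR exactTest, adjusted p = 0.195). DESeq2 gave an adjusted p of 0.0314 for Lamb1, and over all alternatives it lay between 0.0314 and 0.786.

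Lamc1 (ENSMUSG00000026478, chromosome 1, 153218922 to 153332786) had the highest fold change of the 9 genes, 2.5-fold. TICs were at 46.9, 98.6 and 141 CPM, and the other group at 29.5, 31.2 and 53.6 CPM. TIC replicate 1 lay below the highest sample of the other group, and the log2 fold change of 1.32 had a standard error of 0.47 (adjusted p = 0.227 from edgeR's exactTest). Without TIC replicate 1 the adjusted p was 0.0247.

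Lama4 (ENSMUSG00000019846, chromosome 10, 38965515 to 39110188), which encodes the α4 chain of vascular and muscle laminins, was the least abundant of the 9 genes, and its highest sample was 7.28 times its lowest, the widest range among them. It was at 37.5, 71.3 and 92.6 CPM in TICs and at 55.7, 28.5 and 12.7 CPM in the other group. The groups overlapped, since replicate 1 of non-CD24+CD90+ tumor cells lay above TIC replicate 1, and the log2 fold change was 1.05 ± 0.56 (SE, edgeR exactTest, adjusted p = 0.702). Leaving out non-CD24+CD90+ replicate 1 gave 1.71 and leaving out replicate 3 of the same group 0.68. Per exon length the Lama4 to Lamc1 ratio was 1.3, 0.626 and 0.163 in non-CD24+CD90+ tumor cells and 0.547, 0.496 and 0.452 in TICs, so that TICs varied little around a value inside the wide range of the other group (exact permutation test, two-sided, p = 1). The Lamb1 to Lamc1 ratio ranged from 2.74 to 6.3 and from 2.64 to 5.92 in the same order of groups (exact permutation test, two-sided, p = 0.3, adjusted p = 1 over 4 ratios).

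The nidogens and perlecan link the laminin and collagen IV networks. Nid1 (ENSMUSG00000005397, chromosome 13, 13437551 to 13512269), which binds laminin γ1 and collagen IV, was at 72.5, 178 and 159 CPM in TICs and at 55.5, 53.1 and 99.4 CPM in the other group. TIC replicate 1 lay inside the range of the other group, and the log2 fold change was 0.98 ± 0.41 (SE, edgeR exactTest, adjusted p = 0.399). Nid2 (ENSMUSG00000021806, chromosome 14, 19751265 to 19811787) was between 0 and 2.33 CPM in all samples, with 0 counts in 2 of them, so that no ratio to Nid1 was formed. Of the exonic length of Nid2, 8.45% is shared with Rtraf on the opposite strand, and the strand setting of the counting is not given in the sources used here.

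Hspg2 (ENSMUSG00000028763, chromosome 4, 137468769 to 137570630), the gene of perlecan, a large heparan sulfate proteoglycan that binds growth factors, was at 238, 205 and 358 CPM in TICs and at 111, 245 and 128 CPM in the other group. Replicate 2 of non-CD24+CD90+ tumor cells lay above the 2 lower TIC samples. Its log2 fold change, 0.72 ± 0.36 (SE, adjusted p = 0.632), was the smallest of the 9 genes, and it was 1.15 without that replicate.

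Compared per kilobase of exon, the order of levels was much the same in both groups. In non-CD24+CD90+ tumor cells Col4a1 led with 44.2 ± 4.35 CPM per kb, followed by Col4a2 with 31.0 ± 4.82 and Lamb1 with 20.6 ± 2.49 (SD, n = 3), and the ranges of these neighbors did not overlap. Hspg2, Nid1, Col15a1, Col18a1, Lamc1 and Lama4 followed, from 11.3 to 2.68 CPM per kb, each overlapping the next. In TICs the first 3 were the same genes, with 86.7 ± 24.1, 62.2 ± 10.8 and 36.7 ± 7.12 CPM per kb, but there the ranges of Col4a1 and Col4a2 overlapped. From Nid1, at 19.6 ± 8.07, down to Lama4, at 5.56 ± 2.3 CPM per kb, each range again overlapped the next, and Nid2 was last in both groups.

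How closely single genes followed the mean profile of the 9 differed. The mean of their centered log2 CPM was -0.57, -0.51 and -0.42 in the replicates 1 to 3 of non-CD24+CD90+ tumor cells and 0.06, 0.47 and 0.97 in TICs. Col4a1 was closest to this mean, with a root mean square difference of 0.0975 over the 6 samples, and Lama4 was farthest, with 0.678. Outside the list, the 5 genes above 50 CPM with the smallest difference, out of 3788, were Tnfaip2 (0.0926), Plpp3 (0.116), Dlc1 (0.125), Cavin1 (0.127) and Clmp (0.137). Plpp3 encodes a lipid phosphate phosphatase of the plasma membrane, Dlc1 a GTPase-activating protein, Cavin1 a coat protein of caveolae and Clmp a cell adhesion molecule. These 5 genes were picked by their values in these same samples. Their fold changes follow from that choice, and their test results are no further evidence. Plpp3 passed the test, at 494.7 ± 42.0 CPM in non-CD24+CD90+ cells and 1012 ± 411 CPM in TICs (log2 fold change 1.03 ± 0.32 SE, exactTest, adjusted p = 0.094), and so did Clmp (1.28 ± 0.39, SE, adjusted p = 0.0948).

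The remaining basement membrane genes lay on both sides of 0. Of 27 listed, 23 were tested, 15 with a log2 fold change above 0 and 8 below, and their median was 0.28. In 9 of the 23 every TIC sample lay above every non-CD24+CD90+ sample, against 7.69% of all tested genes. The reverse order occurred in 4, against 7.55%. The unadjusted p of edgeR's exactTest was below 0.05 in 8 of the 23, against 7.85% of all tested genes. Fbln1 and Smoc2 passed the test, both higher in TICs, as did 1.36% of all tested genes, and edgeR's quasi-likelihood test called 1 gene of this list. Fbln1, a matrix glycoprotein of basement membranes and elastic fibers, was at 43.4 ± 3.78 CPM in non-CD24+CD90+ cells and 140.3 ± 26.2 CPM in TICs (log2 fold change 1.69 ± 0.34 SE, exactTest, adjusted p = 0.00091). Smoc2, a calcium-binding protein of the SPARC family, was at 61.3 ± 5.95 and 147 ± 58.6 CPM (log2 fold change 1.26 ± 0.37 SE, adjusted p = 0.0648). Sparc, the most abundant gene of the list and a collagen-binding glycoprotein, was at 2312 ± 388 and 4338 ± 1168 CPM (adjusted p = 0.133), and Fbln2 at 241 ± 63.3 and 434 ± 44.2 CPM (adjusted p = 0.202).

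Chains of epithelial basement membranes within this list did not share 1 direction, none of those named here passed the test, and they were named after their values were seen. Lama5, the laminin α5 chain of epithelia and vessels, was low, with a mean of 3.17 ± 1.38 CPM (SD, n = 3) in non-CD24+CD90+ cells, and every TIC sample lay above every sample of that group (log2 fold change 2.13 ± 1.19 SE, edgeR exactTest, adjusted p = 0.823). Col17a1, a collagen of hemidesmosomes, had a log2 fold change of 0.65 and Col7a1, the collagen of anchoring fibrils, of 0.05 (adjusted p = 1 for both). Lamb3, the β3 chain, had a log2 fold change of -0.39 (edgeR exactTest, adjusted p = 0.972), Col4a6 of -1.09 (adjusted p = 0.918) and Col4a5 of -0.33 (adjusted p = 1). Lama3, the α3 chain, had 0 counts in the 3 TIC samples against 3, 45 and 69 in the other group. It did not exceed 1 CPM in 3 samples and so did not enter the test. A count of 0 calls for more caution in TICs, as given above.

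Set against the corresponding member within each sample, Lamb3 and Col4a6 were separate between the groups, shown here as a description because the ratios were chosen after their values were seen. Per exon length, the Lamb3 to Lamb1 ratio was 0.888, 1.02 and 1.001 in non-CD24+CD90+ tumor cells and 0.504, 0.471 and 0.308 in TICs. In the same order of groups the Col4a6 to Col4a1 ratio was 0.0766, 0.0749 and 0.071 against 0.0256, 0.0235 and 0.00879, and for Col4a5 to Col4a1 the groups overlapped. Each ratio is formed within a sample and does not depend on how the libraries are scaled.

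**Figure D2:**
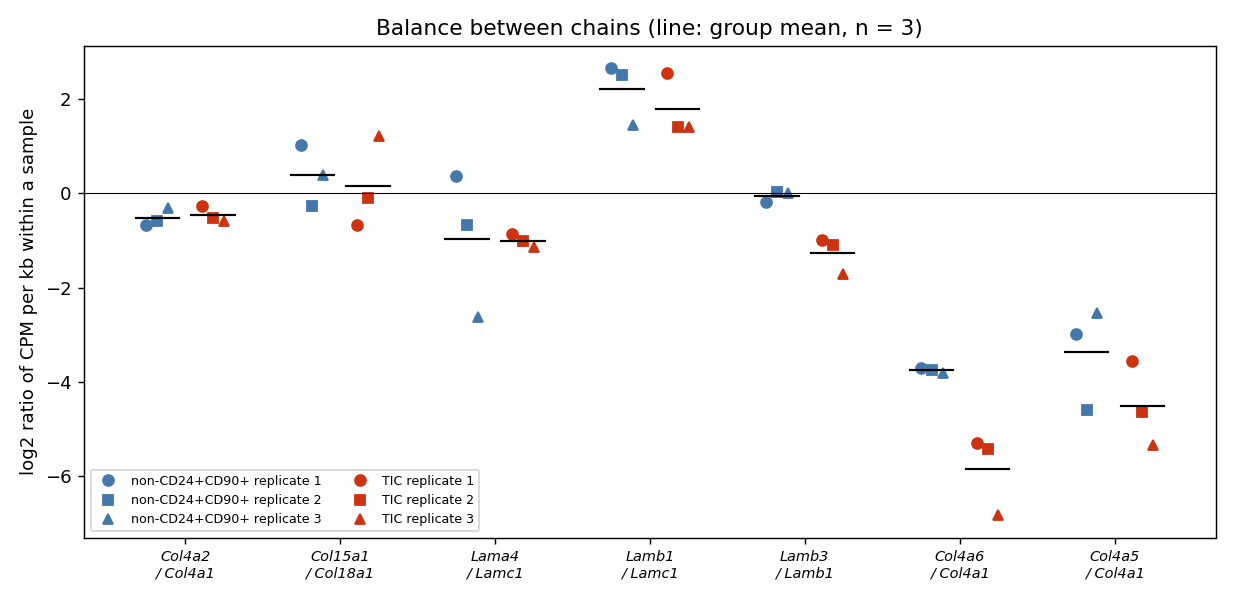
Log2 ratio of CPM per kb between pairs of chains within each sample (vertical axis), in blue for non-CD24+CD90+ tumor cells and red for TICs, with a line at each group mean (n = 3). The 4 ratios between members overlap between the groups, while Lamb3 to Lamb1 and Col4a6 to Col4a1 lie lower in all 3 TIC samples.

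Genes that act on basement membranes were described from 3 further lists. Of 15 receptors, 12 were tested and 0 passed edgeR's exactTest, with a median log2 fold change of 0.06. The unadjusted p was below 0.05 in 4 of the 12, some higher and some lower in TICs, against 7.85% of all tested genes. Both edgeR's quasi-likelihood test and DESeq2 also called 0 receptors. Itga6, the laminin-binding integrin α6, was at 356 ± 25.9 CPM in non-CD24+CD90+ cells and 241 ± 22.0 CPM in TICs, and Itgb1 at 240.5 ± 39.1 and 259.6 ± 127 CPM. Of 18 genes for folding and export of collagen IV, 17 were tested, with a median of 0.65. Against 1.55% of all tested genes, 1 of the 17 passed. This was P3h3, a prolyl 3-hydroxylase family member, at 18.9 ± 10.5 CPM against 114 ± 8.24 CPM in TICs (log2 fold change 2.59 ± 0.45 SE, exactTest, adjusted p = 9.45e-05). Serpinh1, the collagen chaperone HSP47, was at 587 ± 43.1 and 943 ± 115 CPM (adjusted p = 0.323), and P4hb at 337 ± 28.1 and 400.5 ± 92.2 CPM.

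Proteases that cleave basement membrane components formed the last of these lists. Of 17 listed symbols, 1 (Ela2) was ambiguous and 15 were tested, with a median log2 fold change of 1.05. All 15 were above 0, against 49.7% of all tested genes. Of the 15, 5 passed, all higher in TICs, against 1.36% of all tested genes. They were Mmp14, Mmp2, Mmp13, Htra1 and Ctsl, and edgeR's quasi-likelihood test called 1 gene of the list. Several of these genes are named in the study for these samples, so that the list is no independent evidence of its direction. Mmp13, a collagenase, had a log2 fold change of 2.85 (adjusted p = 0.0766) and Htra1, a secreted serine protease, of 1.43 (adjusted p = 0.0956). Mmp14, a membrane-bound metalloproteinase that activates the collagen IV-cleaving Mmp2, was at 1099 ± 25.4 CPM in non-CD24+CD90+ cells and 2606 ± 701 CPM in TICs (log2 fold change 1.25 ± 0.29 SE, exactTest, adjusted p = 0.00642), and Mmp2 was at 52.9 ± 16.7 and 133 ± 14.2 CPM (log2 fold change 1.33 ± 0.36 SE, adjusted p = 0.0407). Ctsl, which can release endostatin from collagen XVIII, was at 99.0 ± 28.0 and 202 ± 20.5 CPM (adjusted p = 0.0998), and Ctsb at 489 ± 206 and 607.7 ± 241 CPM.

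Since the members are products of vascular and stromal cells as well, the markers of such cells in the sorted samples were set beside them. All 18 endothelial markers were tested, all with a log2 fold change above 0, against 49.7% of all tested genes, and with a median of 1.19. In 2 of the 18 every TIC sample lay above every non-CD24+CD90+ sample, against 7.69% of all tested genes. Of the 18, 1 passed as higher in TICs, against 1.36% of all tested genes. This was Robo4 (2.72 ± 0.62, SE, adjusted p = 0.00959 from edgeR's exactTest). The summed level of the 18 was 405.9 to 578 CPM in non-CD24+CD90+ cells and 539, 1043 and 2351 CPM in the TIC replicates 1 to 3. No marker was at 0 in all samples. Flt1 and Plvap were the most abundant, Flt1 at 77.4, 223 and 566 CPM in TICs against 133, 100.1 and 47.3 CPM. The summed level of the 10 vascular-type basement membrane genes was 1037 to 1234 CPM in non-CD24+CD90+ cells and 1715, 2068 and 2844 CPM in TICs. In TIC replicate 1 the endothelial sum lay within the range of non-CD24+CD90+ tumor cells. The basement membrane sum of that sample lay above the range of that group. So did its sums over pericyte and smooth muscle markers, 1119 CPM against 628 to 852, and over fibroblast markers, 9620 against 4078 to 4357. In a bulk sample, more cells of a type and more RNA per cell cannot be told apart.

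**Figure D3:**
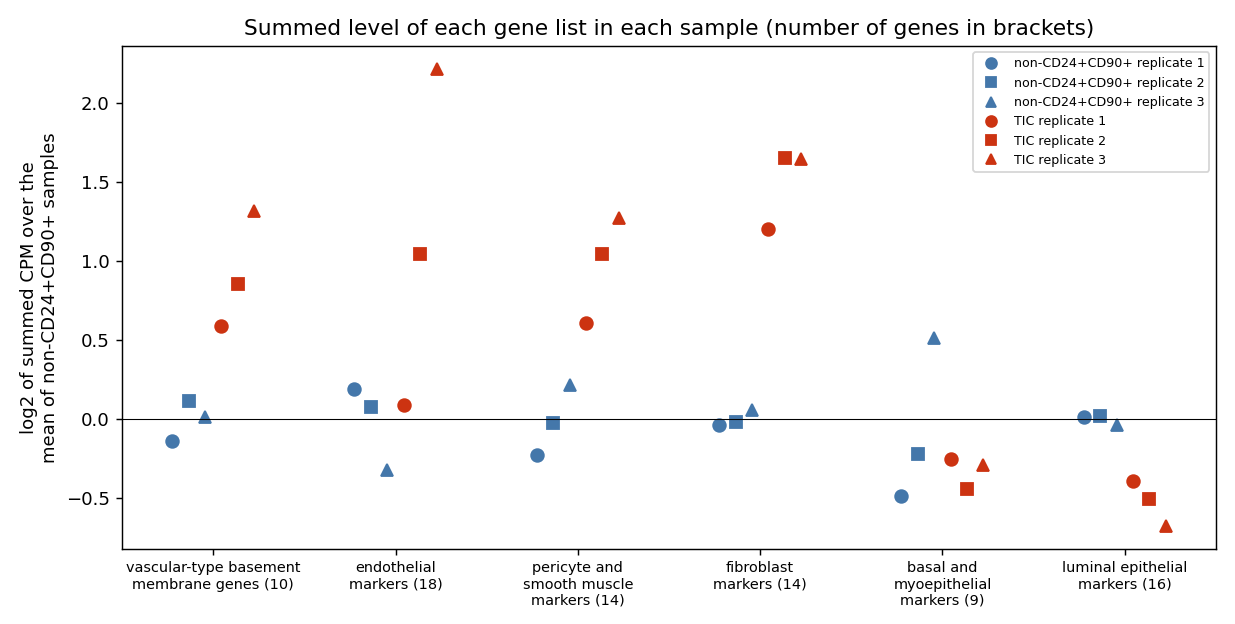
Summed CPM of each gene list in each sample, as log2 over the mean of non-CD24+CD90+ tumor cells (vertical axis), for the 10 vascular-type basement membrane genes and 5 lists of cell type markers, with blue for non-CD24+CD90+ tumor cells and red for TICs. TIC replicate 3 is the highest sample in the basement membrane, endothelial and pericyte and smooth muscle lists, at 2844, 2351 and 1772 CPM. In the fibroblast list TIC replicate 2 is the highest, at 13159 CPM.

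Markers of other cell types differed in how they compared between the groups. Of 14 pericyte and smooth muscle markers, 12 had a log2 fold change above 0, and the median was 1.17. In 7 of the 14 every TIC sample lay above every non-CD24+CD90+ sample, against 7.69% of all tested genes. Against 1.36% of all tested genes as higher in TICs, 1 of the 14 passed. This was Rgs5, at 243 ± 0.34 CPM in non-CD24+CD90+ cells and 665 ± 136 CPM in TICs (log2 fold change 1.45 ± 0.28 SE, exactTest, adjusted p = 0.000466). The summed level of this list was 628 to 852 and 1119 to 1772 CPM. All 14 fibroblast markers had a log2 fold change above 0, and in 11 every TIC sample lay above every non-CD24+CD90+ sample. Of the 14, 9 passed, all higher in TICs, against 1.36% of all tested genes. Among them were Col1a2, the α2 chain of collagen I, with a log2 fold change of 2.01, and Fbn1, fibrillin-1, with 1.82. The list's median was 1.46 and its summed level was 4078 to 4357 CPM in non-CD24+CD90+ cells and 9620 to 13159 CPM in TICs. Luminal epithelial markers had a median of -0.34 with 0 of 15 tested called by edgeR's exactTest (2 at an unadjusted p below 0.05), and basal and myoepithelial markers a median of -0.01 with 0 of 9 called (1 below 0.05). An unadjusted p below 0.05 was found in 7.85% of all tested genes. Every TIC sample lay below every non-CD24+CD90+ sample in 5 luminal and 0 basal markers, against 7.55% of all tested genes. Among 8 adipocyte markers, Adipoq, Plin1, Lep and Retn were at 0 in all samples and Fabp4, which endothelial cells also express, passed the test (log2 fold change 2.75, adjusted p = 0.000466). Of 10 leukocyte markers Adgre1 and Cd3e were at 0 in all samples, and Lyz2 passed (8.57 ± 3.86 against 55.1 ± 24.4 CPM, adjusted p = 0.0125). The part of these cell types in the levels of the basement membrane genes was not tested.

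Without TIC replicate 3, all 9 tested basement membrane genes had a log2 fold change above 0. The values were 0.34 for Col15a1, 0.47 for Hspg2, 0.68 for Lamb1, 0.77 for Col4a1, 0.78 for Lama4, 0.87 for Nid1, 0.88 for Col4a2, 0.95 for Lamc1 and 1.12 for Col18a1, and edgeR's exactTest called 0 of them, with 4 at an unadjusted p below 0.05, which 6.96% of all genes tested without that sample reached. Without TIC replicate 2, the log2 fold changes of the 9 lay between 0.74 and 1.39, and 0 passed, where 102 of all 11786 genes tested did. Without TIC replicate 1, 4 passed, namely Col4a1, Col4a2, Nid1 and Lamc1, where 323 of all 11688 genes tested did.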

How the data were processed

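The authors trimmed the reads with Trimmomatic (version 0.32), aligned them to GRCm38 with STAR (version 2.4.0), removed reads that were not uniquely mapped with samtools (version 1.1) and counted reads per gene with HTSeq (version, annotation and strand setting not given in the sources used here), and they deposited raw counts for 41388 Ensembl genes in each of 6 samples, built from 120 ng RNA each. Reads shared with similar or overlapping genes can be missing from such counts. Symbols, coordinates and exon lengths came from GENCODE release M21 on GRCm38, and 40254 genes had a symbol. Promoter windows came from RefSeq, GRCm38.p6.

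A gene entered the tests where 3 or more samples exceeded 1 CPM (12192 genes). The counts were normalized by TMM and the groups compared with exactTest, with common and tagwise dispersions, in edgeR (version 4.0.16, R version 4.3.3), and p-values were adjusted by Benjamini and Hochberg over all genes kept (threshold 0.1). The filter on CPM, exactTest and the adjustment follow the study's methods, which do not state the CPM minimum or the normalization. Standard errors came from the negative binomial fit with tagwise dispersions. Ratios between genes were compared with exact permutation tests over samples (SciPy version 1.17.1), two-sided. Replicate numbers only name samples. The study calls the samples of a group biological triplicates, and their counts differed beyond sampling noise. Alternatives were DESeq2 (version 1.42.0) and edgeR's quasi-likelihood test, scaling by library size alone or RLE, no filter or at least 10 counts in every sample, trended dispersions, a threshold of 0.05, and each sample left out in turn. Scripts were tested on simulated data.

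The members and gene lists were chosen with earlier results of these data known. The genes named are the members; of each further matrix list the called genes (up to 4 per direction) and the 2 most abundant; of each marker list the 2 most abundant, up to 2 called and those at 0; and the 5 nearest in profile. The epithelial laminin and collagen IV chains and their ratios, and Ctsl as the last of 5 calls, were named after their values were seen. Some items of the lists are not reported here.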

Additional observations from a re-analysis of the deposited data

How the results depend on the processing

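The main fit is the exactTest fit to all 6 samples made here, and its counts are not those of the study. Leaving out each sample in turn gave 72 calls over all genes (without non-CD24+CD90+ replicate 3) to 323 (without TIC replicate 1), against 189 in the main fit. For the vascular-type basement membrane genes, 2 in the main fit, the count was 0 to 4, with 0 in every fit with a sample left out except that without TIC replicate 1. For the other basement membrane genes, 2 in the main fit, it was 1 to 4, and for receptors, 0 in the main fit, 0 to 1. For collagen IV folding and export genes, 1 in the main fit, it was 1 to 2, and for proteases, 5 in the main fit, 1 to 6. With edgeR's quasi-likelihood test the counts were 50 over all genes, 0 vascular-type genes, 1 other basement membrane gene and 1 protease. DESeq2 called 306 genes over all (231 higher and 75 lower in TICs, so that 75.5% were higher, against 87.8% in the main fit), 4 other basement membrane genes and 2 folding and export genes. Scaling by library size alone gave 153 genes over all, with 0 vascular-type genes, 1 other basement membrane gene and 2 proteases. Without a filter 112 genes were called, with 0 vascular-type genes, 1 other basement membrane gene and 2 proteases. With at least 10 counts in every sample, 270 of all 8565 genes tested were called. Among them were 4 vascular-type genes, 5 other basement membrane genes and 1 receptor. A threshold of 0.05 left 116 genes over all, 0 vascular-type genes, 1 other basement membrane gene and 2 proteases. At an unadjusted p below 0.05, 8 vascular-type genes passed the quasi-likelihood test (7.92% of all genes), 7 the fit scaled by library size alone (7.92%) and 7 that without a filter (5.39%). The cause of these shifts was not tested. In all 14 alternatives the 9 tested vascular-type genes kept a log2 fold change above 0. The ratios between members were recomputed with 1 count added and with each sample left out only, and their exact test cannot pass the threshold in any of these. The ratio of Nid2 to Nid1 was planned and not formed, because 2 samples had 0 counts of Nid2. No paired analysis was possible because the labels number the samples from 1 to 6 through both groups and tie no TIC sample to a non-CD24+CD90+ sample. The replicate numbers used here were given in accession order, and whether pools of both groups came from the same mice is not given in the labels.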
